A study of Homo sapiens with 26 samples.

Results

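The genes described here are villin (VIL1) and 9 further genes of intestinal differentiation, CDX1, CDX2, CDH17, KRT20, LGALS4, TFF1, TFF3, MUC2 and CEACAM5. They were taken by symbol, 10 of the 58735 genes in the deposited expression table, and the group was put together knowing that VIL1 differed between large and small tetraploid clones of the DLD1 line. Differences of these genes among DLD1 tetraploid clones are therefore described by their values and were not tested.

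CDX1 and CDX2 are homeobox transcription factors that set and hold intestinal identity, and many genes of mature gut epithelium carry binding sites for them. Villin bundles and severs actin in the microvilli of the brush border, and keratin 20 is an intermediate filament protein of mature surface cells. CDH17 (liver-intestine cadherin), CEACAM5 (carcinoembryonic antigen) and LGALS4 (galectin-4) act at the cell surface in adhesion and sugar binding, while MUC2 and the trefoil factors TFF1 and TFF3 are secreted into mucus. Colorectal cancers keep this programme to very different degrees.

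The study sequenced poly-A RNA in 26 libraries from 3 established cancer lines, DLD1 and HCT116 from the colorectum and CAL51, labelled as triple negative breast cancer. Each line had 1 uncloned 2N parental culture and 2 2N clones. The 4N clones came from cells kept for 20 hr in 1.5 µg/mL DCB for DLD1, or in 75 µM blebbistatin for HCT116 and CAL51, to block cytokinesis, followed by 48 hr without drug and limiting dilution to single cells. They are labelled small or large: 3 small and 4 large clones in DLD1, 3 and 3 in HCT116, and 1 and 3 in CAL51. Apart from the parental cultures each library is 1 clone, so a p-value here weighs a difference against clone-to-clone spread, and the drug differs between DLD1 and the other lines.

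Levels are in FPKM, fragments per kilobase of gene scaled per library, and 1 read in a gene of 1 kb is worth between 0.0246 and 0.0400 FPKM. Libraries held 23.5 to 44.5 M assigned reads. Of 10 epithelial markers, 9 had a median of 1 FPKM or more in DLD1 and in HCT116 but 5 in CAL51, and the colon antigen GPA33 stayed at or below 0.198 FPKM in DLD1 and 0.115 in HCT116. Breast markers were low in CAL51, where 0 of 8 had a median of 1 FPKM or more, whereas 4 of 10 mesenchymal markers did. Mesenchymal markers summed to at most 0.276 FPKM in any DLD1 library, and blood and vessel markers to at most 0.425. In HCT116 the mesenchymal markers summed to between 2.62 and 7.41 FPKM and the blood and vessel markers to at most 0.455. In CAL51 these sums ran from 38.5 to 135 and up to 4.08. A lower level in a bulk library may stand for fewer cells that make the RNA or for less RNA per cell, and these cannot be told apart.

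The members fell into a group that DLD1 expressed and a group that was low throughout. In DLD1 the median over 10 libraries was 49.4 FPKM for CDX2, 16.3 for CDH17, 6.77 for TFF1, 4.87 for TFF3, 2.34 for KRT20 and 0.645 for VIL1. The other 4 members did not reach 1 FPKM in any of the 26 libraries: the highest values were 0.986 for LGALS4, 0.306 for CEACAM5, 0.112 for MUC2 and 0.0610 for CDX1. Statistical tests covered the 14835 genes with 1 FPKM or more in at least 3 libraries, which admitted 6 members and left out LGALS4, CEACAM5, MUC2 and CDX1. VIL1 met that requirement through the parental DLD1 library and the 3 small DLD1 clones alone, and TFF1 through DLD1 alone. Counts over the 6 are thus not counts over the programme.

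**Figure D1:**
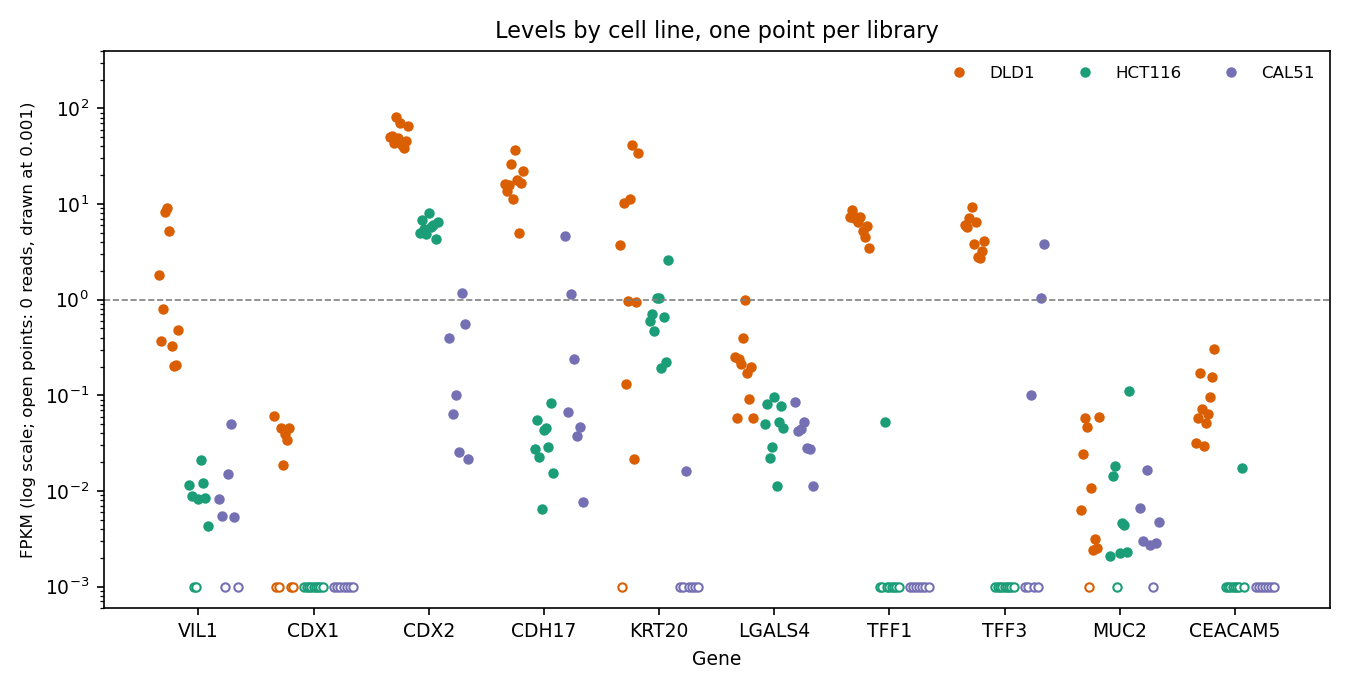
FPKM of each member (log scale) with 1 point per library, coloured by cell line; open points are libraries with 0 reads, drawn at 0.001, and the dashed line marks 1 FPKM. CDX2, CDH17, TFF1 and TFF3 reach their highest values in DLD1, CDX2 and KRT20 are the members that reach 1 FPKM in HCT116, and CDX1, MUC2, CEACAM5 and LGALS4 lie under the line in all 3 lines.

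Among the transcription factors, CDX2 was abundant in DLD1 and CDX1 was close to silent. CDX2 (chromosome 13, 27962137 to 27971139, minus strand, GRCh38) stood at 50.2 FPKM in the parental DLD1 culture, 51.1 and 43.4 in the 2N clones, 81.8, 48.6 and 70.8 in the small clones and 41.9, 38.5, 45.3 and 65.2 in the large clones. Small clones 1 and 3 and large clone 4 were the highest, and the classes overlapped. Small clones averaged 67.0 ± 16.9 FPKM (SD, n = 3) and large clones 47.7 ± 11.99 (SD, n = 4), and the difference of means was -0.48 on the log2(FPKM + 1) scale. CDX1, its paralog, had 14 reads over the 10 DLD1 libraries, at most 4 in any of them, and 0 in the 9 HCT116 and 7 CAL51 libraries. In the 4 DLD1 libraries with 0 reads of CDX1, a limit of 3 reads allows up to 0.0541 to 0.0655 FPKM.

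Promoter sequences were available from RefSeq (GRCh38.p14) for 5 members, CDX2, KRT20, LGALS4, MUC2 and CEACAM5. Those of CDX2, the factor, and of KRT20, the member whose level varied most, are shown as the 250 bases before the transcription start, 5′ to 3′ on the gene's strand, with each CDX core, TTTAT or its complement ATAAA, in capitals. The CDX2 window is chr13:27969316-27969565 and lies within the deposited bounds of the gene, and the KRT20 window is chr17:40885243-40885492, both on the minus strand.
CDX2: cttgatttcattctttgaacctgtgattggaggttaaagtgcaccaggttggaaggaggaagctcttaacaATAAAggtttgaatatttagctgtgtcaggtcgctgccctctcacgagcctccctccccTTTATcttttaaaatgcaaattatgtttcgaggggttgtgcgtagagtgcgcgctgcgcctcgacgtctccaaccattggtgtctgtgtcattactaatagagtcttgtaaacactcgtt
KRT20: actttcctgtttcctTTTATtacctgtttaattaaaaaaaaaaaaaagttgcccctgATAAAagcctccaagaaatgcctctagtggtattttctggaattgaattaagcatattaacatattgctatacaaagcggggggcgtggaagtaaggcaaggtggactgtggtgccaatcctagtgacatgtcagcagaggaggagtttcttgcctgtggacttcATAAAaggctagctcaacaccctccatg
CDX2 held 2 cores and KRT20 held 3, the nearest ending 23 bases before the KRT20 start. MUC2 and CEACAM5 held 1 each and LGALS4 held 0. Of 35116 RefSeq promoters of this length, 32.7% held at least 1 core, 12.8% at least 2 and 5.20% at least 3. The GATA core GATAA (complement TTATC) was in 4 of the 5 members and 20.4% of promoters. In CDX2 and KRT20 the GATA match shared bases with a marked CDX core, so the matches are not separate there. The HNF1 motif GTTAAT (complement ATTAAC) was in KRT20 alone of the 5 and in 6.23% of promoters. The HNF4 core CAAAGT (complement ACTTTG) was in 0 of the 5 and 10.3%. The TATA box TATAAA, whose complement TTTATA contains the CDX core, was in 0 of the 5 and in 10.7%. These matches describe letters in the window and not bound sites.

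VIL1 was the member with the widest gap between DLD1 classes. VIL1 (chromosome 2, 218419092 to 218453295, plus strand) stood at 8.24, 8.99 and 5.22 FPKM in the 3 small clones, from 2116, 1904 and 1052 reads. The 4 large clones had 0.328, 0.202, 0.206 and 0.482 FPKM from 35 to 88 reads, the 2N clones 0.371 and 0.807, and the parental culture 1.81. Every small clone lay above each of the other 7 DLD1 libraries, and the large clones overlapped the 2N clones. The means were 7.48 ± 2.00 FPKM (SD, n = 3) in small, 0.305 ± 0.132 (SD, n = 4) in large and 0.589 ± 0.308 (SD, n = 2) in 2N clones. On the log2(FPKM + 1) scale large minus small was -2.68, small minus 2N was 2.40 and large minus 2N was -0.28. Because this scale compresses low values, the same large-minus-small difference was -4.24 with a pseudocount of 0.1. VIL1 thus set the small clones apart from the uncloned culture and from the 2N clones, not only from the large clones.

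KRT20 (chromosome 17, 40875941 to 40885227, minus strand) spread widely within every class of clones. The parental DLD1 culture had 3.70 FPKM. The 2N clones had 0 and 10.2 FPKM, from 0 and 595 reads. The small clones had 0.131, 0.974 and 11.4 FPKM, and the large clones 41.8, 0.0217, 0.950 and 34.1. Each class of clones held at least 1 clone under 1 FPKM and at least 1 above 10, so the classes overlapped throughout. Large clone 1 gave 2549 reads and large clone 2 gave 1 read. The within-class SD of KRT20 on the log2(FPKM + 1) scale was 2.45 in DLD1, larger than that of 99.99% of the 14835 genes. In HCT116 it was 0.583, larger than that of 96.0%. For comparison, 80.5% of genes had a smaller within-class SD than VIL1 in DLD1 and 88.2% a smaller one than CDX2. The mean in large clones, 19.2 ± 21.8 FPKM (SD, n = 4), was smaller than its own SD.

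**Figure D2:**
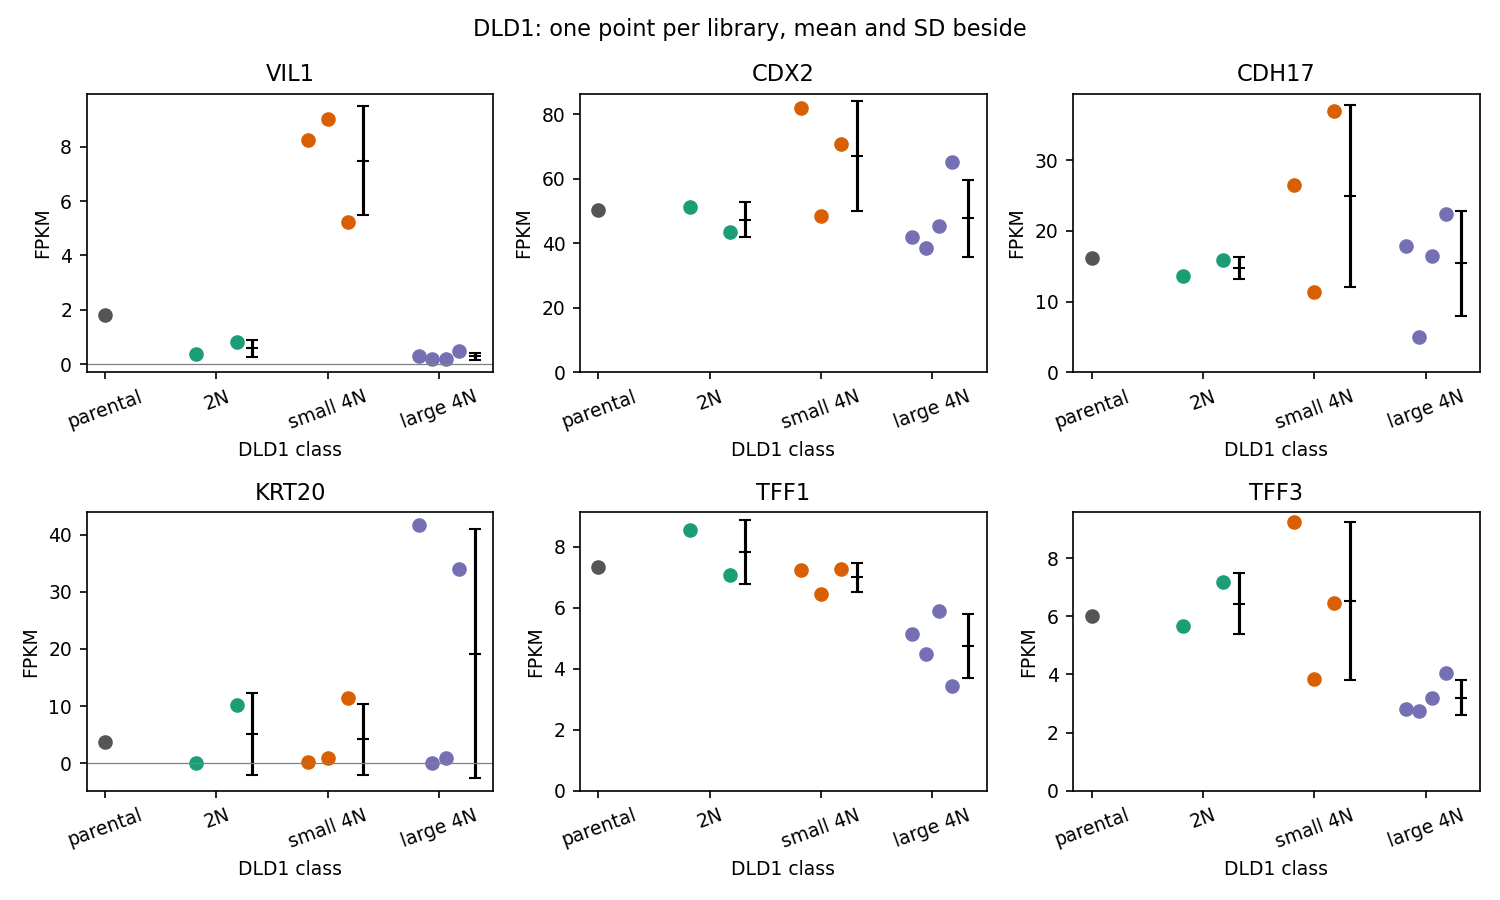
FPKM of 6 members in the DLD1 libraries, 1 point per library by class, with the mean and SD of each class of clones beside the points. VIL1 is high in the 3 small clones (5.22 to 8.99 FPKM), TFF1 is lower in all 4 large clones (3.44 to 5.89) than in the other libraries, and KRT20 runs from 0 to 41.8 with low and high clones in every class.

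At the cell surface, CDH17 (chromosome 8, 94127171 to 94217303, minus strand) was high in every DLD1 library but spread widely. It stood at 16.1 FPKM in the parental culture, 13.6 and 15.9 in the 2N clones, 26.5, 11.4 and 36.9 in the small clones and 17.9, 4.94, 16.5 and 22.3 in the large clones. Large clone 2 was the lowest and small clone 3 the highest, and 99.3% of genes had a smaller within-class SD in DLD1. The large-minus-small log2 difference was -0.68, with overlapping classes. Small clone 2, the small clone with the least CDX2, also had the least CDH17 of the 3, and large clone 2 had the least of both genes among the large clones.

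LGALS4 (chromosome 19, 38801671 to 38813364, minus strand) was the low member closest to 1 FPKM. Small clone 3 had 0.986 FPKM from 76 reads, small clones 1 and 2 had 0.214 and 0.395, and the large clones ran from 0.0574 to 0.196 from 4 to 16 reads. The small clones lay above the large ones, whereas the 2N clones, at 0.0580 and 0.240, overlapped both. CEACAM5 (chromosome 19, 41708585 to 41729798, plus strand) went from 0.0293 FPKM in small clone 2 to 0.306 in large clone 4, between 3 and 27 reads, with overlapping classes. The gene that overlaps CEACAM5 in the table had 0 FPKM in all libraries.

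Of the secreted trefoil factors, TFF1 was the member with the smallest within-class SD in DLD1 among the 6 tested elsewhere (0.209 on the log2 scale). TFF1 (chromosome 21, 42362282 to 42366594, minus strand) had 7.35 FPKM in the parental culture, 8.56 and 7.08 in the 2N clones, 7.24, 6.47 and 7.29 in the small clones and 5.16, 4.50, 5.89 and 3.44 in the large clones. All 4 large clones lay below the other 6 DLD1 libraries. Small clones averaged 6.996 ± 0.460 FPKM (SD, n = 3) and large clones 4.75 ± 1.04 (SD, n = 4), which is -0.49 on the log2 scale. These levels rest on 50 to 151 reads per library, because the gene is short.

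TFF3, which lies 46.6 kb from TFF1 on chromosome 21 (42311667 to 42315651, minus strand), had 5.99 FPKM in the parental culture, 5.68 and 7.17 in the 2N clones, 9.25, 3.83 and 6.46 in the small clones and 2.82, 2.74, 3.20 and 4.06 in the large clones. The large clones lay below the 2N clones and the parental culture but overlapped small clone 2. Large clones averaged 3.21 ± 0.603 FPKM (SD, n = 4) and small clones 6.52 ± 2.71 (SD, n = 3), which is -0.78 on the log2 scale. MUC2, the gel-forming mucin of goblet cells (chromosome 11, 1074875 to 1110511, plus strand), stayed at or below 0.0599 FPKM in DLD1, with 0 to 23 reads in a library. DLD1 thus had trefoil factor RNA with MUC2 near 0.

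Of the 6 members that could be tested elsewhere, VIL1 and TFF1 were lower in all large than in all small DLD1 clones. Among all 14835 genes, 6.21% showed that pattern. VIL1 was also the 1 member with all small clones above every other DLD1 library, a pattern of 2.9% of genes. The group was chosen from this contrast, so nothing is read from these counts.

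The genes beside VIL1 showed small differences. Of 20 other genes that start within 200 kb, 7 were tested, and their large-minus-small differences in DLD1 ran from -0.36 for PNKD to 0.16 for TMBIM1, against -2.68 for VIL1. CTDSP1, a phosphatase gene just before VIL1, had 26.1 ± 0.150 FPKM (SD, n = 3) in small and 21.2 ± 1.96 (SD, n = 4) in large clones. USP37, a deubiquitinase gene on the opposite strand, shares 3045 bases with the end of VIL1 and stayed between 2.40 and 3.26 FPKM in DLD1. Libraries were directional, but the strand setting used in counting is not given in the sources used here.

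**Figure D3:**
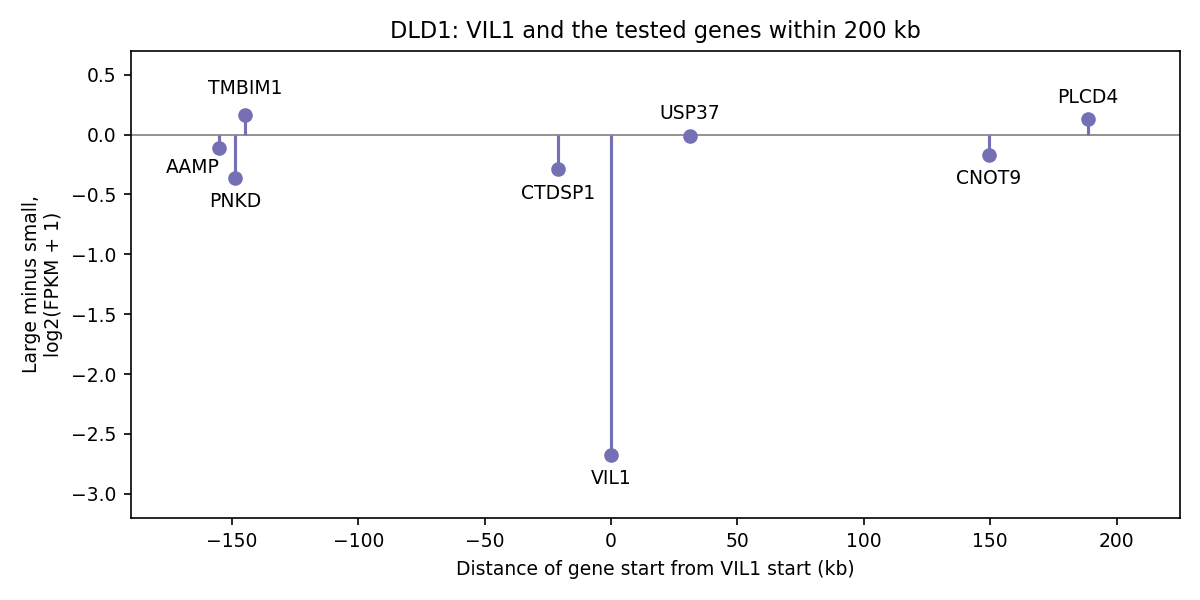
Large minus small DLD1 clones on the log2(FPKM + 1) scale for VIL1 and the 7 tested genes that start within 200 kb, against the distance of each gene's start from the VIL1 start. VIL1 lies at -2.68 and its neighbours lie between -0.36 and 0.16.

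The genes whose levels followed VIL1 most closely over the 10 DLD1 libraries were LRRN4, GTPBP6, SLC34A3, ZBED1 and MYO15B, with Pearson r on the log2(FPKM + 1) scale from 0.937 to 0.952 among 1465 genes with a range of at least 1. LRRN4, a leucine-rich repeat membrane protein gene, had 3.05 ± 0.842 FPKM (SD, n = 3) in small and 0.953 ± 0.287 (SD, n = 4) in large clones. SLC34A3, a sodium-phosphate cotransporter, had 4.36 ± 1.61 and 0.813 ± 0.484 in the same order. MYO15B had 6.17 ± 1.86 and 0.994 ± 0.166. Over all 26 libraries the 5 closest of 9674 genes were FGD2, LRRN4, SLC34A3, FER1L6 and BCL2L14, with r from 0.859 to 0.940. These ranks describe libraries of 4 classes that differ in VIL1, so a gene that is higher in small clones ranks high by that alone.

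In HCT116 the programme was reduced to CDX2 and a little KRT20, and neither differed detectably with size or ploidy. CDX2 had 4.95 FPKM in the parental culture, 6.75 and 5.48 in the 2N clones, 4.90, 8.02 and 5.69 in the small clones and 6.01, 4.28 and 6.46 in the large clones. All classes overlapped. KRT20 had 0.603 FPKM in the parental culture, 0.713 and 0.475 in the 2N clones, 1.05, 1.04 and 0.191 in the small clones and 0.665, 0.223 and 2.58 in the large clones. As in DLD1, low and high clones stood in the same class.

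VIL1 had 18 reads over the 9 HCT116 libraries, from 0 to 5 in each, and at most 0.0213 FPKM. In HCT116 there was therefore no villin level in which a class difference like that of DLD1 could be seen. CDH17 had at most 0.0830 FPKM, TFF1 had 1 read in all, TFF3 and CDX1 had 0 and CEACAM5 had 2. MUC2 had 68 reads, of which 47 were in large clone 3, the clone with the highest KRT20, where it reached 0.112 FPKM.

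By limma with Benjamini-Hochberg adjustment over 14835 genes, 0 of the 6 members past the filter differed between large and small (0.445% of all genes did), small 4N and 2N (0.027%) or large 4N and 2N clones (0.917%) of HCT116. At an unadjusted p under 0.05 each count was also 0, and so was each count by limma voom on the recovered reads. The other 4 of these members lacked a level to compare in HCT116, so the counts speak to CDX2 and KRT20 alone. CDX2 differed by -0.12 ± 0.26 (log2, SE) between large and small clones (adjusted p = 0.906) and KRT20 by 0.18 ± 1.19 (adjusted p = 1). For KRT20 the error would hide a change of several fold. CDX2 differed by -0.12 ± 0.29 between large 4N and 2N clones (adjusted p = 0.924).

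CAL51 showed scattered members in single libraries. CDH17 had 4.66 FPKM from 644 reads in the parental culture, 0.0675 and 1.16 in the 2N clones, 0.240 in the small clone and 0.0379, 0.0469 and 0.00763 in the large clones. The large clones were the lowest of the 7 libraries. CDX2 had 0.397 FPKM in the parental culture, 0.0639 and 0.101 in the 2N clones, 0.0252 in the small clone and 1.18, 0.559 and 0.0217 in the large clones. TFF3 had 1.03 FPKM from 33 reads in large clone 2, 3.82 from 150 reads in large clone 3 and 0.102 from 4 reads in 2N clone 2, and 0 reads in the other 4 libraries. The large clone with the most CDX2 thus had 0 reads of TFF3, and the one with the most TFF3 had the least CDX2. VIL1 stayed at or below 0.0498 FPKM, KRT20 had 1 read in all, and TFF1, CDX1 and CEACAM5 had 0.

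By limma, 0 of the 6 members past the filter differed between the large clones and the single small clone of CAL51 (1.52% of all genes did) or between large 4N and 2N clones (0.465%), and by limma voom also 0. Only 1 of the 6, TFF3, reached a mean of 1 FPKM in a group compared, so these counts say little about the others. TFF3 had an unadjusted p under 0.05 in each comparison. TFF3 differed by 1.10 ± 0.51 (log2, SE) from the small clone (adjusted p = 0.395) and by 1.03 ± 0.41 from the 2N clones (adjusted p = 0.474). These values depended on single clones. Without large clone 1, the one with 0 reads, they were 1.65 from the small clone and 1.58 from the 2N clones (adjusted p = 0.0202 by limma). With another single clone left out they fell as low as 0.51 and 0.44. Leaving out the clone with 0 reads raises the difference by itself, so nothing is read from that p-value. For the single small clone the fit borrows its spread from the other groups.

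**Figure D4:**
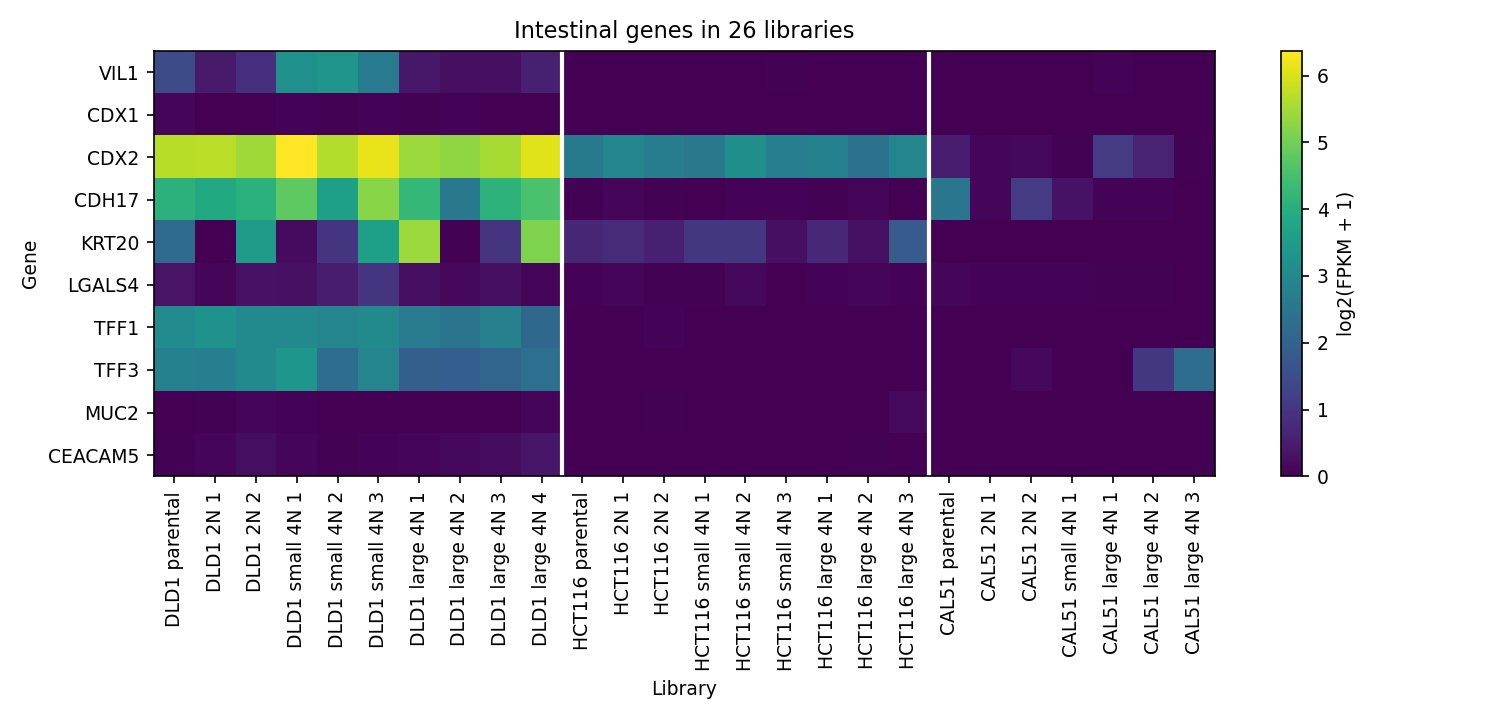
log2(FPKM + 1) of the 10 members (rows) in the 26 libraries (columns), with white lines between DLD1, HCT116 and CAL51. CDX2 is bright in every DLD1 library, VIL1 in the 3 small DLD1 clones, KRT20 in single clones of each DLD1 class, and TFF3 in 2 large CAL51 clones.

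The 2N clones were compared between lines, which asks how far each line expresses these genes before any change of ploidy. CDX2 averaged 47.3 ± 5.43 FPKM (SD, n = 2) in DLD1 against 6.11 ± 0.897 in HCT116, a log2 difference of 2.76 ± 0.32 (SE, adjusted p = 2.13e-06 by limma). KRT20 did not pass (1.08 ± 1.46, adjusted p = 0.599), and the 2N DLD1 clones had 0 and 10.2 FPKM. VIL1, CDH17, TFF1 and TFF3 passed the filter on low values only with DLD1 libraries, where they are high, so their differences from DLD1 are given as levels with no test. CDH17 averaged 14.8 ± 1.60 FPKM in DLD1 against 0.0387 ± 0.0230 in HCT116. TFF1 had 8.56 and 7.08 FPKM in the DLD1 clones and 1 read over both HCT116 clones.

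TFF3 was at least 169-fold higher in DLD1, with HCT116 set at 3 reads over its 2 clones. VIL1 had 0.371 and 0.807 FPKM in the 2N DLD1 clones and at most 0.00885 in those of HCT116. Limma called 5 of the 6 higher in DLD1, where 39.6% of all genes differed and 18.3% were higher in DLD1, and because of the filter nothing is read from that count.

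Against CAL51 2N clones, CDX2 was higher in DLD1 by 5.47 ± 0.32 (log2, SE, adjusted p = 1.81e-10 by limma). CDH17 had 0.0675 and 1.16 FPKM in the CAL51 2N clones, below both DLD1 2N clones. TFF1, with 0 reads in the CAL51 2N clones, was at least 85.8-fold higher in DLD1. VIL1 had 1 read over both CAL51 2N clones. Limma again called 5 of the 6 higher in DLD1, where 40.1% of genes differed and 18.8% were higher in DLD1, with the same limit. This comparison uses the same DLD1 clones as the one with HCT116.

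Between the HCT116 and CAL51 2N clones, 1 of 6 members differed, where 45.4% of genes did. That was CDX2, with 6.11 ± 0.897 against 0.0824 ± 0.0261 FPKM (SD, n = 2), a difference of 2.71 ± 0.32 (adjusted p = 1.83e-06). CDX2 was thus ordered DLD1, HCT116 and CAL51, with no overlap between neighbours in the 2N clones. CDH17 was higher in both CAL51 2N clones than in both HCT116 2N clones and did not pass (-0.55 ± 0.50, adjusted p = 0.4). With the parental cultures counted as 2N libraries the difference was -1.19 (adjusted p = 0.0371), and the CAL51 parental culture had 4.66 FPKM.

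Other genes of the programme were followed as lists. The lists were drawn up with earlier results of these data known, so p-values of list genes between DLD1 classes are descriptive. Of 19 brush border genes, 12 were tested and 0 differed between large and small DLD1 clones by limma, where 0.472% of all genes did (median log2 difference -0.09, all genes 0). EZR, the ezrin gene that links actin to the membrane, had 218 ± 16.0 FPKM (SD, n = 3) in small and 265 ± 28.2 (SD, n = 4) in large clones. PLS1, another microvillar actin bundler, had 15.2 ± 2.92 and 14.4 ± 3.37 in the same order. At an unadjusted p under 0.05, 1 of the 12 brush border genes differed. Against 2N clones, where 0.337% of genes differed, 1 of the 12 was higher in small clones. That was MYO1D, an unconventional myosin, at 22.2 ± 2.67 against 8.23 ± 1.28 FPKM (1.33 ± 0.26, adjusted p = 0.0334). MYO1D passed without small clone 1 (adjusted p = 0.0425) but not without any of the other 4 clones (adjusted p up to 0.204), nor by limma voom (adjusted p = 0.0765).

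Between the 2N clones of the colorectal lines, 3 of 12 brush border genes were higher in DLD1 and 3 were lower, close to the 18.3% and 21.3% of all genes. MISP, an actin-associated protein, had 102 ± 6.99 FPKM (SD, n = 2) against 13.8 ± 1.21 (2.80 ± 0.61, adjusted p = 0.0014). ESPN, the gene of the actin bundler espin, and USH1C, the harmonin gene of the tip links, went the other way. They passed the filter on low values only with HCT116 libraries, so they are given as levels with no test. ESPN had 0.238 ± 0.219 FPKM in DLD1 against 20.4 ± 0.567 in HCT116. USH1C had 0.0344 ± 0.0154 against 4.58 ± 0.929. Both are among the 3 genes counted as lower, so nothing is read from that count. HCT116, without villin, thus carried 2 brush border genes that DLD1 had at low levels.

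Digestive enzyme and transport genes were mostly off. Of 25, 5 were tested and 0 differed between large and small DLD1 clones, also at an unadjusted p under 0.05. FABP1, the fatty acid carrier, had 0 reads in all 26 libraries, and SI, sucrase-isomaltase, did not exceed 0.0112 FPKM. CA2, carbonic anhydrase 2, ran from 7.61 to 23.9 FPKM in DLD1 and from 36.2 to 321 in CAL51.

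Of 22 goblet cell and mucin genes 8 were tested, and 1 was lower in large than in small DLD1 clones. MUC20, a membrane mucin, had 1.56 ± 0.418 FPKM (SD, n = 4) in large and 4.26 ± 2.13 (SD, n = 3) in small clones (-0.97 ± 0.20, adjusted p = 0.0324 by limma). As the list was drawn up with earlier results known, this p-value is descriptive. MUC20 passed without small clone 2 (adjusted p = 0.000564) and without large clone 1, but not without any of the other 5 clones (adjusted p up to 0.166), nor by limma voom (adjusted p = 0.221). AGR2, a protein disulfide isomerase needed for mucin folding, ran from 27.6 to 67.9 FPKM in DLD1, and the stomach-type mucin MUC5AC from 1.24 to 13.2. In HCT116 these 2 genes did not exceed 0.00932 FPKM. The goblet cell regulators ATOH1 and SPDEF stayed at or below 0.272 FPKM in DLD1. DLD1 thus had AGR2, MUC5AC and both trefoil factors but neither MUC2 nor the regulators of the goblet lineage above 1 FPKM.

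Of 20 genes listed as regulators of intestinal identity, 17 were tested and 0 passed between large and small DLD1 clones, also at an unadjusted p under 0.05. The list is of transcription factors apart from the splicing regulators ESRP1 and ESRP2. In large clones 15 of the 17 were lower, with a median log2 difference of -0.26, where 49.7% of all tested genes were lower and the median was 0. Against 2N clones 14 of 17 were higher in small clones (median 0.17, with 46.0% of all genes higher). Of these 17, 0 passed the threshold and 1 had an unadjusted p under 0.05. Both comparisons use the same small clones. The list was drawn up with earlier results known, so nothing is read from these signs. HNF4A, the nuclear receptor of gut and liver epithelium, had 5.62 ± 1.02 FPKM (SD, n = 3) in small and 4.62 ± 1.53 (SD, n = 4) in large clones. FOXA1, a pioneer factor, had 72.9 ± 14.0 and 58.7 ± 12.2.

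Between 2N clones of DLD1 and HCT116, 10 of the 17 regulators were higher in DLD1 and 2 were lower, where 18.3% and 21.3% of all genes were. Genes near 0 in HCT116, such as FOXA2, could pass the filter on low values through DLD1, so nothing is read from these counts. FOXA1 had 62.4 ± 9.29 FPKM (SD, n = 2) against 0.652 ± 0.0738 (5.25 ± 0.29 on the log2 scale). GATA6 had 26.6 ± 1.15 against 3.32 ± 0.109. The 2 that were lower in DLD1 were ESRP1 and FOXA3.

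Several crypt and stem cell genes were high in DLD1, and others were higher in HCT116. Of 16, 15 were tested, with 0 past the threshold and 2 at an unadjusted p under 0.05 between large and small DLD1 clones. The stem cell factor ASCL2 ran from 65.1 to 170 FPKM in DLD1 and did not exceed 0.0318 in HCT116, and the Wnt target LGR5 ran from 9.81 to 38.5 against at most 0.0278. Between the 2N clones 6 of 15 crypt genes were higher in DLD1 and 3 were lower, where 18.3% and 21.3% of all genes were. Genes near 0 in HCT116, such as ASCL2, could pass the filter on low values through DLD1, so nothing is read from these counts. EPHB2, a receptor that positions crypt cells, had 2.03 ± 0.839 FPKM (SD, n = 4) in large and 6.37 ± 3.45 (SD, n = 3) in small DLD1 clones and did not pass (-1.23, adjusted p = 0.0537). BMI1, a Polycomb protein of stem cells, lay the other way, at 35.0 ± 18.0 in large and 11.2 ± 3.62 in small clones, and did not pass either (1.44, adjusted p = 0.0743).

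Of 15 endocrine and Paneth cell genes 1 was tested, REG4, which ran from 0.0458 to 15.6 FPKM in DLD1. Of 14 relatives of CEACAM5 and LGALS4, 5 were tested and 0 differed between large and small DLD1 clones, also at an unadjusted p under 0.05. LGALS3, galectin-3, was the galectin of DLD1 with 117 to 278 FPKM, and LGALS1, galectin-1, that of HCT116 with 173 to 620 against 1.20 to 5.83 in DLD1.

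In HCT116, 0 of the 63 tested list genes passed in any comparison of large, small and 2N clones. Among all genes 0.445% passed for large against small, 0.027% for small against 2N and 0.917% for large against 2N. At an unadjusted p under 0.05 there were 7, 3 and 10 of the 63 in the same order. No share of all genes is given at that p, so nothing is read from such counts, here or in the lists above. Limma voom called 0 of the 63 in each comparison within a line. In CAL51 the large clones differed from the single small clone in members of 3 lists, where 1.52% of all genes differed. Between large and 2N clones of CAL51, 0 of the 63 passed, where 0.465% of all genes did. CAL51 2N clones averaged 43.5 ± 48.1 FPKM (SD, n = 2) for AGR2 and 1.25 ± 0.888 for ITLN1. They averaged 4.56 ± 0.0319 for FCGBP and 13.0 ± 11.9 for SMOC2. The differences from 1 small clone are therefore not read as a trait of large clones. AGR2 fell to 9.46 ± 5.56 FPKM (SD, n = 3) from 69.2 (-2.90 ± 0.71, adjusted p = 0.0481), and the goblet cell lectin ITLN1 to 0.448 ± 0.485 from 4.23 (-1.91 ± 0.27, adjusted p = 0.000925). FCGBP, a mucus protein, rose to 6.42 ± 2.79 from 1.73 (1.38 ± 0.30, adjusted p = 0.0272). Among regulators PPARG was lower (-2.85 ± 0.63, adjusted p = 0.027), and the crypt gene SMOC2 was higher (2.23 ± 0.52, adjusted p = 0.0367). By limma voom the adjusted p of these 5 genes ran from 0.0540 to 0.152, and none passed. Without large clone 2, AGR2, PPARG and SMOC2 did not pass (adjusted p = 0.0991, 0.0578 and 0.0626), and without large clone 3, AGR2 and SMOC2 did not (0.0551 and 0.0589). Of 9 tested epithelial markers 1 passed between large and small CAL51 clones, KRT19, which was lower in large clones (-3.79 ± 0.51, adjusted p = 0.00058), and by sign 3 of the 9 were higher and 6 lower. Of 5 tested mesenchymal markers 1 passed, PDGFRB, which was higher (3.09 ± 0.71, adjusted p = 0.034), and by sign 3 of the 5 were higher and 2 lower. PDGFRB did not pass in limma without large clone 1 or 3 (adjusted p = 0.0554 and 0.0589), without the filter on low values (0.0512), with CAL51 fitted alone (0.872) or by limma voom (0.236). Among all genes 1.52% passed between large and small CAL51 clones, and by sign 50.2% were higher and 48.1% lower. Between large and 2N clones, 0 of the 9 epithelial and 0 of the 5 mesenchymal markers passed. The 2N clones averaged 19.4 ± 11.6 FPKM (SD, n = 2) for KRT19 and 11.5 ± 11.9 for PDGFRB. The 10 epithelial markers summed to between 227 and 3961 FPKM in the large clones and to 1249 in the small clone. The 10 mesenchymal markers summed to between 81.6 and 135 and to 59.1 in the same order. GPA33 was at 0 in all of these clones, as was DCN, while ZEB2 and LUM were at 0 in the small clone but not in every large clone. Their part in the differences was not tested.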

How the data were processed

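Gene expression was measured by RNA sequencing in 26 libraries of 3 cell lines. The deposited values are FPKM, used as the authors deposited them. The submitters' processing notes name fastp, HISAT2 2.0.5, featureCounts 1.5.0-p3, DESeq2 and the build GRCh38. The FPKM formula and the strand setting are not given in the sources used here. Value times gene length was a whole multiple of 1 factor per library, within 0.01 reads, for 100% of values, which gave the reads quoted. Floors of 3 reads cover counting error only.

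Genes reaching 1 FPKM in 3 libraries or more (14835) were fitted on log2(FPKM + 1) with limma 3.58.1 (R 4.3.3; trend, moderated variances, 12 means of line by class, residual df 14), two-sided, Benjamini-Hochberg over all genes, threshold 0.05. The fit was tested on simulated data. Named genes were the members, tested neighbours within 200 kb of VIL1, the 5 protein-coding genes closest to VIL1 by Pearson r, and list genes past the threshold or high in a line; further list genes (FABP1, SI, PLS1, ATOH1, SPDEF, HNF4A, EPHB2 and others without a call) were chosen after their values were seen. Some list genes are counted in their lists but not reported here by name. The members and lists were chosen with earlier results of these data known. Promoters came from RefSeq, and all 10 members matched GENCODE release 29 by name and coordinates. Python 3.11.15 and pandas 2.3.3 were used for counts and figures. Alternatives were another pseudocount, no filter, median-ratio scaling, each line alone, pooled parental libraries, limma voom on the reads, a replicate block and single clones left out.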

Additional observations from a re-analysis of the deposited data

Results flagged for a closer look

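MUC2, the goblet cell mucin, stood out in 1 of the 4 large DLD1 clones. Large clone 4 had 20 reads (0.0599 FPKM) and large clones 1, 2 and 3 had 1 read each. The gap of clone 4 to the next clone was 0.987 of the range of the 4, above Dixon's 95% critical value for 4 samples. Chance passes about 1 in 20 such groups, and 10 members were examined. Small DLD1 clone 1 and 2N clone 2 had 22 and 23 reads, so the level of large clone 4 was not outside that of the line.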

How the results depend on the processing

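Of 100 values of counts and of the VIL1 difference under alternative settings, 95 kept their direction and their side of the threshold. For VIL1 in DLD1, large minus small was -4.24 with a pseudocount of 0.1 and -4.66 by limma voom in place of -2.68, -2.89 to -2.54 with single clones left out and -2.74 with the replicate block. The count of members between large and small CAL51 clones, and that between large and 2N clones, ran from 0 to 1 with single clones left out; the 1 was TFF3 without large clone 1, where the group of 3 became 2. HCT116 against CAL51 gave 2 in place of 1 with the parental libraries pooled, the second being CDH17. With single clones left out, DLD1 against HCT116 and DLD1 against CAL51 each ran from 4 to 5 members. Of the other values under alternative settings, not among these 100, 287 were the same, 54 weaker, 2 stronger and 16 reversed.

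The sign turned among values near 0 in HCT116, and for KRT20 also between lines. With all clones, KRT20 differed by 1.08 for DLD1 minus HCT116 and by 1.73 for DLD1 minus CAL51. CDX2 in HCT116 ran from -0.25 to 0.052 (large minus small), -0.17 to 0.13 (small minus 2N) and -0.25 to 0.0298 (large minus 2N) with single clones left out, and small minus 2N was -0.0023 with a pseudocount of 0.1, -0.0032 with median-ratio scaling, -0.0085 by limma voom and -0.028 with the replicate block. KRT20 ran from -0.26 to 0.51 and from -0.16 to 0.62 for large minus small and large minus 2N in HCT116, from -0.67 to 2.82 for DLD1 minus HCT116 and from -0.012 to 3.48 for DLD1 minus CAL51, and DLD1 minus HCT116 was -0.71 by limma voom. The cause was not tested.

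The replicate block changed no member count. Clone numbers name separate clones: same-numbered small and large clones correlated between -0.0558 and 0.0852 in DLD1 and between 0.0284 and 0.164 in HCT116. The block was not run between lines, and the single small CAL51 clone could not be left out. Members under 1 FPKM rest on few reads, with 1 clone for each library and 1 to 4 clones a group.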
